A study of Arabidopsis thaliana with 39 samples.

Results

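The genes described are PROPEP1 (AT5G64900), PROPEP2 (AT5G64890) and PROPEP3 (AT5G64905), which encode precursors of the Pep danger peptides, and PEPR1 (AT1G73080) and PEPR2 (AT1G17750), which encode the receptors of those peptides. They were chosen by name, as were the gene lists below, with earlier results of these data known. All 5 had values in a table of 20001 genes. RNA was sequenced from whole Arabidopsis thaliana Col-0 seedlings, 14 days old, kept in liquid culture under continuous light on a medium with sucrose. Seedlings received L-glutamate (L-Glu, 20 mM) or salicylic acid (SA, a defence hormone, 1 mM), each sampled after 6, 12, 24 and 48 h, or urea (20 mM) at the same times, and a mock group with water was taken at 0 h. Each of these 13 groups had 3 libraries, 39 in all, and all were of the same ecotype with no transgene or mutation named in the labels. The study was designed to find genes induced by Glu, and urea was given at the dose of L-Glu and at the same times. Treated seedlings were therefore set against urea at the same time. Urea at 20 mM does not match SA at 1 mM in dose.

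Pep peptides are cut from the C-terminal end of PROPEP proteins, in wounded cells by the calcium-activated metacaspases, and act outside the cell as signals of damage. PEPR1 and PEPR2 are leucine-rich repeat receptor kinases that bind them and signal with the co-receptor kinase BAK1, the cytoplasmic kinase BIK1 and the oxidase RBOHD. The pathway is known for amplifying immune responses that microbial patterns start, and PROPEP genes themselves are known to be induced by wounding, by pathogens and by Pep peptides.

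L-Glu raised all 5 genes. Averaged over the 4 times, PROPEP3 exceeded its urea level in L-Glu by 5.14 ± 0.36 on the log2 scale (SE), PEPR1 by 4.27 ± 0.15, PROPEP2 by 3.61 ± 0.30, PEPR2 by 1.23 ± 0.25 and PROPEP1 by 1.15 ± 0.33. PROPEP2 was the first to pass the test, at 6 h. PROPEP3, PEPR1 and PEPR2 followed at 12 h and PROPEP1 at 24 h. This is the order of passing a threshold, and the genes were not tested against each other at single times. At 6 h PROPEP3 and PEPR1 were at 1.53 and 0.70 without passing. SA did not raise all 5 genes. PROPEP2 was higher in SA than in urea, PROPEP1, PEPR1 and PEPR2 were lower, and PROPEP3 did not pass the test.

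Values are the authors' normalized values per gene. Their scaling was not stated, nor whether it takes gene length into account, so levels are compared between groups and not between genes. Their sum was between 2445640 and 5886170 per library and their median between 46.4 and 56.9, with the largest sums in L-Glu at 24 h. Between 0 and 657 genes per library were listed at 0. There were 0 in each L-Glu library at 12 and 24 h, and 505 to 657 in SA at 48 h. The low end of the values thus differed between groups. It also differed between libraries of 1 group, with 0 to 629 genes at 0 in SA at 24 h and 0 to 365 in mock. Differences are on the scale of log2(value + 1), which understates those of low genes. They were tested with limma over all 39 libraries, and a gene was called where p adjusted over 20001 genes was under 0.05. The fit takes 1 spread per gene for all 13 groups. The SE of a gene is thus the same at every time, also where the libraries of 1 group differ more. The labels do not say whether the 3 libraries of a group came from separate cultures, so p-values measure the spread between these libraries, which may be technical.

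The C-terminal coding stretches show how alike the 3 precursors are. PROPEP2, PROPEP1 and PROPEP3 lie in this order on the plus strand of chromosome 5 within 5513 bases, with gaps of 1465 and 1385 bases between them. Coordinates and sequence are those of RefSeq's TAIR10.1 assembly. The lines give the 69 coding bases that end with the conserved peptide motif of serine, serine, glycine, any 2 residues, glycine, any 2 residues and asparagine. Capitals mark the 27 bases that code for the motif.
PROPEP1, chr5:25937868-25937936: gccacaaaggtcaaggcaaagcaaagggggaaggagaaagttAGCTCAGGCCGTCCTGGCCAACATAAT
PROPEP2, chr5:25935235-25935303: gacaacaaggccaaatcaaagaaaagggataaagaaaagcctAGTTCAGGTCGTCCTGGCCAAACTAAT
PROPEP3, chr5:25939853-25939921: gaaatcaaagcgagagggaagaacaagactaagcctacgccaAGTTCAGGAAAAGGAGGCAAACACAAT
In PROPEP1 and PROPEP3 the motif was directly before the stop codon, and in PROPEP2 another 13 codons followed it. PROPEP1 and PROPEP2 shared 51 of the 69 bases, PROPEP2 and PROPEP3 shared 40, and PROPEP1 and PROPEP3 shared 34. Over the whole transcripts, the longest run of identical bases between any pair of the 3 was 14. Between PEPR1 and PEPR2 it was 32.

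PROPEP1, at chr5:25937078-25938176 with 2 exons, encodes the precursor of AtPep1, the peptide by which the pathway was first found. It was the last of the 5 genes to pass the test in L-Glu against urea. Its normalized values in L-Glu were 1.90, 2.74 and 0.678 at 6 h, 1.95, 2.84 and 4.77 at 12 h, 8.38, 40.2 and 15.6 at 24 h, and 34.998, 51.7 and 52.4 at 48 h. Urea libraries held between 0.0703 and 10.8 over the 4 times. The L-Glu libraries overlapped urea up to 24 h and lay above all urea libraries at 48 h. The difference was -0.51 at 6 h, 0.03 at 12 h, 1.76 ± 0.65 at 24 h and 3.34 ± 0.65 at 48 h on the log2 scale (SE). By limma it passed at 24 h with an adjusted p of 0.0200 and at 48 h with 4.98e-05. The call at 24 h was lost without L-Glu 24 h replicate 2, at 1.18, and without urea 24 h replicate 2, at 1.17. Scaling libraries to 1 common sum also ended it, at 0.80.

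PROPEP2, at chr5:25934568-25935612 with 2 exons, is the precursor of AtPep2. In L-Glu it held 8.69, 5.38 and 6.80 at 6 h, 20.4, 25.5 and 27.5 at 12 h, 91.2, 102 and 44.7 at 24 h, and 23.8, 50.6 and 101 at 48 h. In urea it was between 0 and 4.81, listed at 0 in 2 of the libraries at 6 h and 1 at 12 h. The L-Glu libraries lay above the urea libraries at every time. The log2 difference was 2.61 ± 0.60 at 6 h, 3.25 ± 0.60 at 12 h, 4.20 ± 0.60 at 24 h and 4.39 ± 0.60 at 48 h (SE), with limma's adjusted p between 1.37e-07 and 0.00274. At 6 h it was 2.28 without replicate 1 of every group (adjusted p = 0.0623). Because urea values were near 0, the added pseudocount of 1 holds these differences down.

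PROPEP3, at chr5:25939562-25940080 in 1 exon, is the precursor of AtPep3 and had the largest difference of the 5 at 24 and 48 h. It held 4.71, 5.97 and 21.4 in L-Glu at 6 h, 58.8, 111 and 92.8 at 12 h, 858, 871 and 426 at 24 h, and 251, 417 and 791 at 48 h. Urea libraries held between 0.459 and 8.63. From 12 h on, no L-Glu library fell in the range of urea at the same time. The log2 difference was 1.53 ± 0.72 at 6 h, with an adjusted p of 0.188 by limma, then 4.46 ± 0.72 at 12 h, 7.58 ± 0.72 at 24 h and 6.98 ± 0.72 at 48 h (SE). At 24 h this was 192-fold on the log2(value + 1) scale.

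PEPR1, at chr1:27484240-27488204 with 2 exons, binds several of the Pep peptides. In L-Glu it held 232, 55.2 and 204 at 6 h, 2399, 1702 and 2542 at 12 h, 11040, 6755 and 9113 at 24 h, and 2091, 2946 and 3437 at 48 h. Urea libraries held between 60.8 and 106. At 6 h replicates 1 and 3 lay above urea and replicate 2 lay below it. That library also stood apart over all genes, at -43.0 on the first principal component, against 5.38 and 9.73 for the other L-Glu libraries at 6 h. The log2 difference at 6 h was 0.70 ± 0.30 (adjusted p = 0.149 by limma), and 1.35 without L-Glu 6 h replicate 2 (adjusted p = 4.10e-05). The second value rests on L-Glu replicates 1 and 3 alone. Both use the spread shared by all groups, whereas log2 values had an SD of 1.13 in L-Glu and 0.32 in urea at 6 h. The SE therefore understates the spread of the L-Glu libraries at 6 h. At 12, 24 and 48 h it was 4.65, 6.54 and 5.20, each ± 0.30 (SE).

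PEPR2, at chr1:6106323-6110120 with 2 exons, is the other Pep receptor, known to bind fewer of the peptides. In L-Glu it held 11.6, 6.62 and 17.6 at 6 h, 30.6, 32.7 and 32.9 at 12 h, 56.6, 33.2 and 42.6 at 24 h, and 36.0, 41.2 and 55.3 at 48 h. Urea libraries held between 4.43 and 26.03. The groups overlapped at 6 h and not later. The log2 difference was 0.34 at 6 h, 1.70 ± 0.49 at 12 h, 1.38 ± 0.49 at 24 h and 1.51 ± 0.49 at 48 h (SE), and limma's adjusted p from 12 h on was between 0.00469 and 0.0152. Single libraries ended these calls. The value was 1.24 at 12 h without urea 12 h replicate 3 and 1.22 at 48 h without urea 48 h replicate 3. At 24 h it was 1.19 without L-Glu 24 h replicate 1 and 1.07 without urea 24 h replicate 2. With all libraries at the same total it was 0.34 at 24 h and 1.03 at 48 h, neither of which passed. The annotation places 2 long non-coding RNA genes on the opposite strand of PEPR2. CSTF77 begins at base 6110107 and overlaps only the last bases of PEPR2. The sources do not state whether the libraries keep strand, so reads within the overlapping stretches cannot be assigned to 1 gene.

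**Figure D1:**
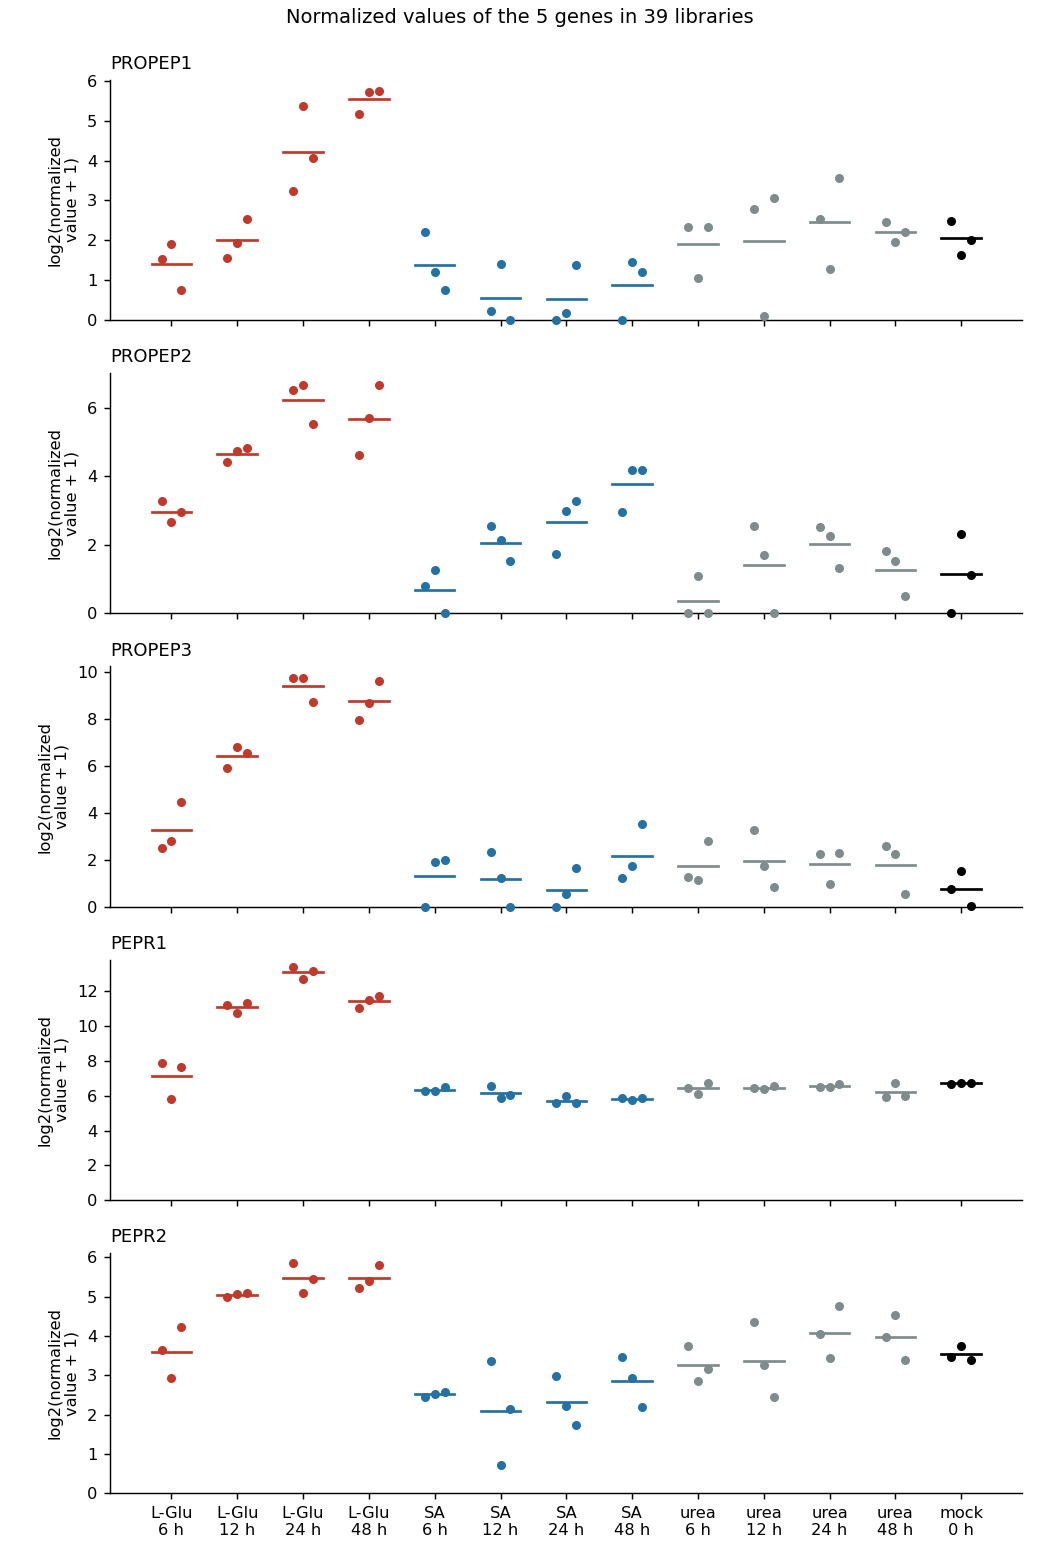
Each panel shows 1 gene, with log2(normalized value + 1) on the vertical axis and the 13 groups on the horizontal axis. Points are libraries and lines are means of the log2 values. PEPR1 reached 8969 ± 2146 in L-Glu at 24 h (SD, n = 3), and PROPEP1 was highest in L-Glu at 48 h.

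In the order of group means, PEPR1 was highest in L-Glu at 24 h, and its libraries did not overlap those of any other group. L-Glu at 48 and 12 h came next and overlapped each other, followed by L-Glu at 6 h. SA at 24 h was lowest, at 52.1 ± 9.37, and overlapped SA at 48 h, at 55.7 ± 2.81 (SD, n = 3 each). PROPEP2 was highest in L-Glu at 24 h, overlapping L-Glu at 48 h, and SA at 48 h followed L-Glu at 12 h, at 13.7 ± 6.00 (SD, n = 3), overlapping L-Glu at 6 h.

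Counted over the 5 genes, L-Glu gave 1 higher than urea at 6 h, 4 at 12 h, 5 at 24 h and 5 at 48 h. Of all 20001 genes, 8.36% were higher at 6 h, 25.8% at 12 h, 29.3% at 24 h and 25.2% at 48 h. Because earlier results of these data were known when the genes were chosen, such shares describe the counts and do not test them. For the average over times the count was 5 of 5, against 33.0% of all genes, while 36.4% of all genes were lower. The median difference of the 5 genes was 3.61 on the log2 scale and that of all genes was -0.05. The median of all genes moved to -0.20 after quantile normalization and to -0.53 once libraries were scaled to 1 common sum. The 5 genes stayed called under both, with PROPEP1 at 0.72 and PEPR2 at 0.75 at the same total. Without replicate 2 of every group PROPEP1 was 0.41 (adjusted p = 0.259 by limma).

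Other features of the seedlings moved along with these differences. The summed value of 6 leaf markers was between 3712 and 8911 in L-Glu at 24 h, where urea libraries held 77056 to 89734. By 48 h it was 1187 to 1416 with L-Glu and 49365 to 53765 with urea. All 6 were lower in L-Glu over the 4 times, and none was at 0. The summed value of 8 root markers was between 17734 and 23167 in L-Glu at 48 h, where urea libraries held 3316 to 3886. The larger sum was not a rise of all 8. At 48 h their log2 differences ran from -2.09 to 2.88, with a median of -0.33. Averaged over the times, 1 of them was higher and 5 were lower. WER was at 0 in L-Glu 48 h replicate 2. Mitochondrial genes made up 0.249 to 0.541% of the summed value in L-Glu at 48 h, where urea libraries had 0.0480 to 0.0919%. The part of these shifts in the results was not tested. In whole seedlings, fewer cells of a type and less RNA per cell cannot be told apart.

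**Figure D2:**
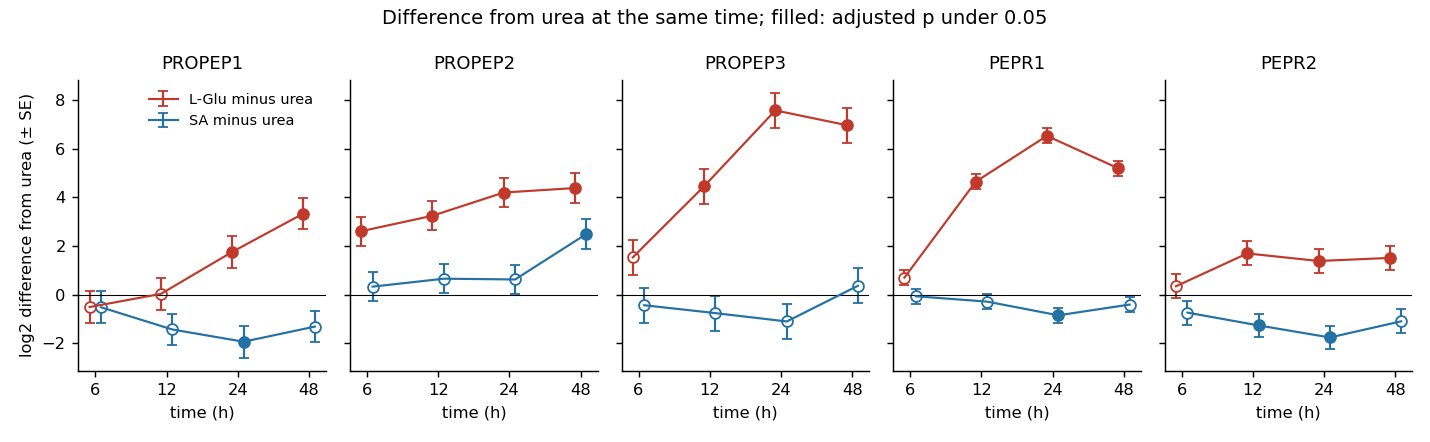
Log2 difference from urea at the same time (vertical axis, ± SE of the fit) for L-Glu in red and SA in blue, by time in hours. Filled points have an adjusted p under 0.05. PROPEP1 in L-Glu was at 0.03 at 12 h and 3.34 at 48 h, while PEPR2 was between 1.38 and 1.70 from 12 h on.

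Within L-Glu, most of the change fell between 6 and 24 h. From 6 to 12 h PROPEP2, PROPEP3, PEPR1 and PEPR2 rose, by 1.69, 3.15, 3.97 and 1.45 on the log2 scale, 4 of the 5 genes against 20.4% of all genes. From 12 to 24 h PROPEP1, PROPEP2, PROPEP3 and PEPR1 rose, by 2.20, 1.58, 3.0 and 2.01, again 4 of 5, against 14.7% of all genes. From 24 to 48 h PEPR1 fell by 1.67 (adjusted p = 4.82e-05 by limma), 1 of 5 against 23.2% of all genes. Quantile normalization brought this fall to -0.60 and ended the call. PROPEP1 had a difference of 1.33 over the same step (adjusted p = 0.106), and of 1.90 without L-Glu 24 h replicate 2 (adjusted p = 0.0356). The calls of PROPEP2 depended on single libraries. From 6 to 12 h the call was lost without L-Glu 12 h replicate 2 or 3, at 1.65 and 1.60, or without L-Glu 6 h replicate 2 or 3, at 1.54 and 1.69. From 12 to 24 h it was lost without any 1 of the L-Glu 12 h libraries, at 1.46, 1.62 and 1.67, or without L-Glu 24 h replicate 1 or 2, at 1.44 and 1.36. The rise of PEPR2 from 6 to 12 h was lost without L-Glu 6 h replicate 2, at 1.11, or L-Glu 12 h replicate 3, at 1.43. That of PROPEP1 from 12 to 24 h was lost without L-Glu 24 h replicate 2, at 1.63. In urea, 0 of the 5 genes differed between 48 and 6 h by limma, and 0 at an unadjusted p under 0.05, against 15.8% of all genes in either direction.

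The difference between L-Glu and urea itself changed with time for 3 of the 5 genes, against 16.4% of all genes. From 6 to 48 h it grew by 3.85 ± 0.92 for PROPEP1, 5.44 ± 1.01 for PROPEP3 and 4.50 ± 0.43 for PEPR1 on the log2 scale (SE). For PROPEP2 the change was 1.78 ± 0.85 (adjusted p = 0.104 by limma), and 2.29 without L-Glu 48 h replicate 1 (adjusted p = 0.0390). For PEPR2 it was 1.17 ± 0.69 (adjusted p = 0.20).

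SA was set against the same urea libraries as L-Glu, so the comparisons with urea share them. Its differences at single times were between -1.94 and 2.50 on the log2 scale. At 6 h 0 of the 5 genes differed by limma, and 0 at an unadjusted p under 0.05, against 29.4% of all genes in either direction. At 12 h PEPR2 was lower, at -1.27 ± 0.49 (SE), 1 of 5 against 15.6% of all genes. This call was lost without SA 12 h replicate 2 or 3, at -0.59 and -1.31, and without urea 12 h replicate 1 or 2, at -0.77 and -1.32. It also ended after quantile normalization, at -1.03, with a pseudocount of 4, at -0.81, and in a fit of the compared groups alone (adjusted p = 0.158 by limma). PROPEP1 at 12 h was at -1.44 (adjusted p = 0.0909) and passed without urea 12 h replicate 2, at -2.38. At 24 h PROPEP1, PEPR1 and PEPR2 were lower, at -1.94, -0.85 and -1.76 on the log2 scale, 3 of 5 against 15.5% of all genes. The PEPR1 call at 24 h did not outlast the loss of SA replicate 1 or 3, at -0.79 and -0.78, or of urea replicate 1, 2 or 3, at -0.87, -0.88 and -0.81. PROPEP1 at 24 h was -1.68 and -1.77 without SA replicate 1 or 2, and -1.90 and -1.39 without urea replicate 1 or 3, and none of these passed. Quantile normalization gave -1.33 for it (adjusted p = 0.130). PEPR2 at 24 h was -1.43 without urea replicate 3, with an adjusted p of 0.0532 by limma.

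PROPEP2 was the exception in SA. Its values were 0.753, 1.39 and 0 at 6 h, 4.88, 3.37 and 1.87 at 12 h, 2.32, 6.88 and 8.69 at 24 h, and 6.77, 17.0 and 17.3 at 48 h. Only at 48 h did all SA libraries lie above the urea libraries, which then held 2.52, 1.87 and 0.409. At that time the difference was 2.50 ± 0.60 (SE, adjusted p = 0.00164 by limma), 1 gene of 5, against 13.5% of all genes higher. Without replicate 3 of every group it was 1.90 (adjusted p = 0.0514). Within SA, PROPEP2 was higher at 48 h than at 6 h by 3.09 ± 0.60 (adjusted p = 0.000247), 1 of 5 against 8.53% of all genes. It ranked 52 of the 20001 genes by the size of that rise.

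Averaged over the 4 times, 1 of the 5 genes was higher in SA than in urea, against 28.2% of all genes, and 3 were lower, against 29.2%. PROPEP2 was at 1.03 ± 0.30, PROPEP1 at -1.30 ± 0.33, PEPR2 at -1.22 ± 0.25 and PEPR1 at -0.40 ± 0.15 on the log2 scale (SE). PROPEP3 was at -0.49 ± 0.36 (adjusted p = 0.253 by limma), with a 95% interval of -1.21 to 0.24. Without urea 48 h replicate 2 PEPR1 was at -0.34 (adjusted p = 0.0560). Without replicate 1 or replicate 3 of every group the called genes were 2, with PROPEP1 lost at -0.996 and -0.977 and PEPR1 at -0.48 and -0.36. Without replicate 3 the PROPEP2 call was lost too, at 0.64, and PROPEP3 passed, at -0.81. PROPEP1 in SA was between 0 and 3.64, listed at 0 in 1 library each at 12, 24 and 48 h, against 0.0703 to 10.8 in urea. PEPR1 in SA was between 46.3 and 93.3, against 60.8 to 106 in urea, and the SA libraries lay below the urea libraries at 24 and 48 h. PEPR2 in SA was between 0.645 and 10.1, against 4.43 to 26.03 in urea, and lay below at 6 and 24 h. Root markers were low in the same libraries. Their summed value was 480 to 1851 in SA, against 3316 to 5221 in urea, 6 of the 8 were lower over the times, and RHS19, PLT1 and WER were each at 0 in at least 1 SA library. The part of this in the results was not tested.

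L-Glu and SA were also compared directly, with no urea library involved. At 6, 12, 24 and 48 h, 2, 4, 5 and 5 of the 5 genes were higher in L-Glu, against 17.4%, 29.1%, 31.7% and 29.4% of all genes. Averaged over times all 5 were higher, against 37.3% of all genes, PROPEP3 by 5.62, PEPR1 by 4.67, PROPEP2 by 2.59, PROPEP1 by 2.46 and PEPR2 by 2.45 on the log2 scale. At 6 h the called genes were PROPEP2 at 2.28 and PROPEP3 at 1.97. The PROPEP3 call was lost without SA 6 h replicate 1, at 1.32, or L-Glu 6 h replicate 3, at 1.36. Without L-Glu 6 h replicate 2, PEPR1 and PEPR2 passed too, both at 1.42, against 0.77 and 1.09 with it. PROPEP1 at 12 h was at 1.47 (adjusted p = 0.0582 by limma) and passed without SA 12 h replicate 2, at 1.90. PROPEP2 at 48 h was at 1.89 and lost its call without L-Glu 48 h replicate 3, at 1.39, or SA 48 h replicate 1, at 1.48.

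Against mock, treatment and time in culture cannot be told apart, since mock was taken at 0 h. Mock libraries held 0.689, 1.90 and 0.0269 for PROPEP3, 0, 4.01 and 1.16 for PROPEP2, 4.63, 2.11 and 3.05 for PROPEP1, 101, 105 and 105 for PEPR1 and 10.1, 12.35 and 9.56 for PEPR2. L-Glu averaged over times was higher for 5 of 5 genes, against 28.8% of all genes, at 6.19 for PROPEP3, 3.97 for PEPR1, 3.74 for PROPEP2, 1.36 for PEPR2 and 1.24 for PROPEP1. The PROPEP1 call was lost without any 1 of 5 libraries, at 1.18 without L-Glu 12 h replicate 3 or L-Glu 6 h replicate 2, 1.1 without L-Glu 24 h replicate 2, and 1.03 and 1.22 without mock replicate 2 or 3. SA averaged over times gave 1 gene higher, against 24.4% of all genes, and 3 lower, against 25.9%. These were PROPEP2 at 1.15, PROPEP1 at -1.22, PEPR1 at -0.70 and PEPR2 at -1.09. Each of these 4 calls rested on single libraries. That of PROPEP2 was lost, at 0.58, without mock replicate 1, and at 1.08 to 1.14 without mock replicate 3, SA 6 h or 12 h replicate 1 or 2, SA 24 h replicate 2 or 3 or SA 48 h replicate 2 or 3. That of PROPEP1 was lost without any 1 of the mock libraries, at -1.42 to -0.99, and at -1.19 to -1.1 without SA 6 h replicate 2 or 3, SA 12 h replicate 1 or 3, SA 24 h replicate 1 or 2 or SA 48 h replicate 1. PEPR1 was at -0.69 without mock replicate 2 or 3, and PEPR2 at -1.12 without mock replicate 1 and -0.99 without mock replicate 2. Urea averaged over times differed from mock for 0 of the 5 genes by limma, and for 0 at an unadjusted p under 0.05, against 13.9% of all genes in either direction.

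Whether the genes differed in how strongly they responded was tested with the ratio of 1 gene to another within a library, which does not depend on the scaling of that library apart from the pseudocount. An exact two-sided permutation test exchanged treatment labels within times, 160000 arrangements over 12 libraries of each treatment, with p-values adjusted over 10 pairs. The smallest p it can give is 1.25e-05. The receptors differed. PEPR1 rose more than PEPR2 in L-Glu against urea, by 3.04 on the log2 scale averaged over times (exact permutation test, adjusted p = 0.000125). The ratio of PEPR1 to PEPR2 was 195, 204 and 214 in L-Glu at 24 h, against 5.93, 9.14 and 3.84 in urea, with exons of 3828 and 3712 bases. In SA the ratio was also higher than in urea, by 0.81 (exact permutation test, adjusted p = 0.00872), and it was 90.2 in SA 12 h replicate 2, where PEPR2 was at 0.645. Without replicate 2 of every group the SA difference was 0.73 (adjusted p = 0.0849).

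**Figure D3:**
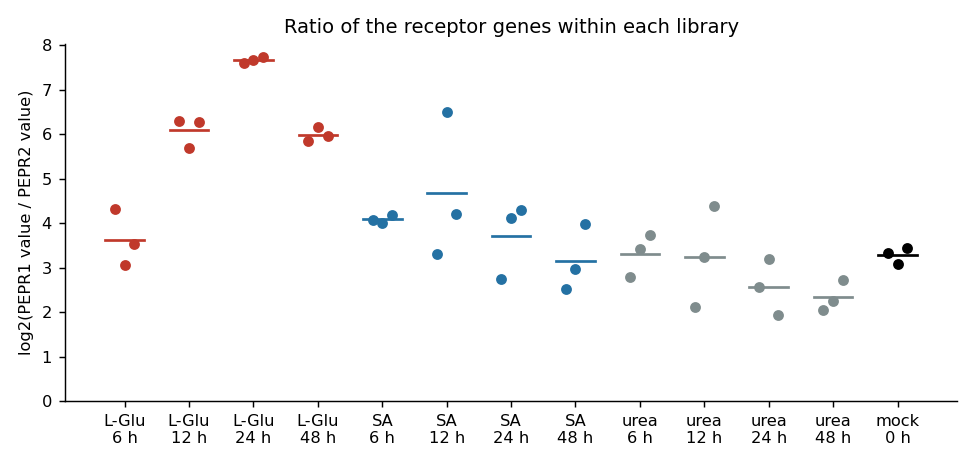
The vertical axis gives the log2 ratio of the PEPR1 value to the PEPR2 value in each library, and the horizontal axis gives the 13 groups. Points are libraries and lines are means. The 3 L-Glu libraries at 24 h lie highest, between 195 and 214 as ratios.

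The precursors differed as well. In L-Glu against urea, PROPEP3 exceeded PROPEP1 by 3.98 on the log2 scale and PROPEP2 exceeded PROPEP1 by 2.46 (exact permutation test, adjusted p = 6.25e-05 for both). PROPEP3 exceeded PROPEP2 by 1.53 (exact permutation test, adjusted p = 0.0104). At 6 h alone, which was not tested by itself, PROPEP2 was ahead of PROPEP3 by 1.08. A pseudocount of 0.25 gave 1.14 for the pair over the times (adjusted p = 0.120), and leaving out replicate 2 gave 1.19 (adjusted p = 0.152). PROPEP3 also exceeded PEPR1, by 0.87 (exact permutation test, adjusted p = 0.0428), but with a pseudocount of 4 the value was 0.09 (adjusted p = 0.757), and without replicate 2 or 3 it was 0.44 and 0.68. The response of PROPEP2 less that of PEPR1 was -0.66 (adjusted p = 0.207 in the exact permutation test), and -1.66 with a pseudocount of 4 (adjusted p = 0.00136). For PROPEP1 less PEPR2 it was -0.08 (adjusted p = 0.874). In SA against urea, PROPEP2 exceeded PROPEP1, PROPEP3, PEPR1 and PEPR2 by 2.33, 1.51, 1.43 and 2.24, with adjusted p between 0.000875 and 0.00459 in the exact permutation test. PROPEP1 was below PEPR1 by -0.90 there (adjusted p = 0.0446), and by -0.27 with a pseudocount of 4 (adjusted p = 0.231).

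Bases upstream of PROPEP2, PROPEP3 and PEPR1 are shown because they hold matches to the W-box core, the letters that WRKY factors are known to bind. These genes were picked for their large differences. The windows of PROPEP1 and PEPR2 hold matches too and are not printed. Whether matches go with the size of the response was not tested. Each line ends at the base before the annotated start. Capitals mark TTGAC on either strand, so GTCAA where it lies on the other strand. The window of PEPR1 has 161 bases, up to the end of the next gene, and the others have 250.
PROPEP2, chr5:25934318-25934567: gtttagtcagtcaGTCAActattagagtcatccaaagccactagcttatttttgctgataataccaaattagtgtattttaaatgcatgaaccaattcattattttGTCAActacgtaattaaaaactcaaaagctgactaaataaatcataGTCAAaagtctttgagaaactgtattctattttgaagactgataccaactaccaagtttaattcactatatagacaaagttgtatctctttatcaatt
PROPEP3, chr5:25939312-25939561: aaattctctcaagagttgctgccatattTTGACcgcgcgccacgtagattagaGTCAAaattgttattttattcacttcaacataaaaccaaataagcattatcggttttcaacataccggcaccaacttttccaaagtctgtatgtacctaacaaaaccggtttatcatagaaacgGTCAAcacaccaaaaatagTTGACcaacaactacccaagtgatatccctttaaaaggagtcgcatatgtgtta
PEPR1, chr1:27484079-27484239: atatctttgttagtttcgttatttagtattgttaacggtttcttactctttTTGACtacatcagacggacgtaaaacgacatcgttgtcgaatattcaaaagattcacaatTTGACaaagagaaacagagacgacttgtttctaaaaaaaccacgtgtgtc
In 250 bases upstream, TTGAC occurred 4 times at PROPEP3, 3 times at PROPEP2 and PEPR1, and 2 times at PROPEP1 and PEPR2, counting both strands. The PEPR1 match farthest upstream lies in the neighbouring gene and is not in the printed window. Of 19504 promoters of this length, 45.5% had at least 1 match, 14.6% at least 2 and 3.55% at least 3. The longer form TTGACC, which contains the core, occurred 3 times at PROPEP3 and 1 time at PEPR1, and 0.0872% of promoters had 3 or more. TTGACT, also containing the core, occurred 2 times at PROPEP2 and 1 time each at PROPEP1, PROPEP3 and PEPR1, and 19.1% of promoters had at least 1. The letters CACGTG were found 1 time at PEPR1, as in 7.33% of promoters, and TGACG and GCCGCC were not in these windows. A match describes the letters and not a bound site.

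The other measured precursors gave mixed results. Of PROPEP4 to PROPEP7, 2 were higher and 1 lower in L-Glu than in urea averaged over times, against 33.0% and 36.4% of all genes, with a list median of 0.74 on the log2 scale. PROPEP4 was at 1.94 ± 0.29, PROPEP7 at 1.37 ± 0.27 and PROPEP5 at -1.25 ± 0.35 (SE), while PROPEP6 was at 0.10 ± 0.26 (adjusted p = 0.737 by limma). PROPEP4 held 16.9, 18.8 and 62.0 in L-Glu at 24 h, against 0.925, 1.51 and 2.92 in urea. In SA, 3 of the 4 were lower, against 29.2% of all genes, PROPEP4 at -0.97, PROPEP6 at -1.03 and PROPEP7 at -0.84, and quantile normalization left 1 of these calls.

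Of the metacaspases, some of which cut PROPEP proteins, 3 of 9 were higher in L-Glu and 2 lower averaged over times, against 33.0% and 36.4% of all genes, with a median of 0.08. MC8 was at 3.55 ± 0.26, MC7 at 0.89 ± 0.21 and MC9 at -1.01 ± 0.14 on the log2 scale (SE). MC8 held 505, 526 and 225 in L-Glu at 24 h, against 8.52, 5.15 and 11.6 in urea. MC4, which releases AtPep1 in damaged Arabidopsis roots, was at 0.08 ± 0.06 (adjusted p = 0.256 by limma). It was lower, at -0.25 after quantile normalization and at -0.43 once libraries were scaled to 1 common sum. The median of all genes moved in these settings too, to -0.20 and -0.53. At the same total 1 metacaspase was higher and 5 were lower, and after quantile normalization 3 were higher and 4 lower. The shares of all genes called in these settings were not computed, so these counts are not set against them.

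In the receptor complex and its early signalling, 20 of 24 genes were higher in L-Glu and 2 lower averaged over times, against 33.0% and 36.4% of all genes, with a median of 1.66 on the log2 scale. The counts were 17 and 6 at the same total and 18 and 5 after quantile normalization, settings for which the shares of all genes were not computed. The ubiquitin ligase gene PUB23, a negative regulator of immune signalling, was at 4.74 ± 0.20 and the transcription factor gene WRKY33 at 4.0 ± 0.27 (SE). The co-receptor kinase genes BAK1 and SERK4 were at 2.47 ± 0.10 and 2.88 ± 0.12, BIK1 at 1.61 ± 0.10 and RBOHD at 2.57 ± 0.17. BAK1 held 4761, 3156 and 2778 in L-Glu at 24 h, against 204, 213 and 191 in urea. The cyclic nucleotide-gated channel gene CNGC4 was lowest, at -2.97 ± 0.14, with 2.91, 5.54 and 5.34 in L-Glu at 24 h, against 133, 149 and 139 in urea. In SA, 14 of the 24 were higher and 3 lower, against 28.2% and 29.2% of all genes, with a median of 0.34. SERK4 was at 1.78 and BAK1 at 0.32 in SA, while RBOHD was at -0.15 (adjusted p = 0.455 by limma) and BIK1 at 0.22 (adjusted p = 0.0526).

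Of other peptide signals and their receptors, 7 of 12 were higher in L-Glu and 3 lower averaged over times, against 33.0% and 36.4% of all genes, with a median of 0.99. The phytosulfokine precursor gene PSK4 was at 2.83 ± 0.16 and the RALF peptide gene RALF33 at 2.25 ± 0.18, while PSK5 was lowest among those called, at -0.65 ± 0.20 (SE). Of the receptors of microbial patterns and their partners, 6 of 7 were higher in L-Glu and 0 lower, against the same shares, with a median of 2.92. LYK5 was at 4.27 ± 0.18, SOBIR1 at 3.67 ± 0.13 and LYK4 lowest among those called at 0.93 ± 0.16. The flagellin receptor gene FLS2 was at 3.20 ± 0.14 and EFR at 2.64 ± 0.13. RLP23, which senses a peptide of several microbes, was the one that did not pass, at -0.06 (adjusted p = 0.857 by limma). It was higher at 12 h, at 1.76 ± 0.53, and lower at 24 h, at -1.20 ± 0.53 (SE, adjusted p = 0.00626 and 0.0489 by limma), and it is named here after its values were seen. In SA all 7 were higher, against 28.2% of all genes, with a median of 1.49, LYK5 at 1.49, SOBIR1 at 2.13, FLS2 at 0.90 and EFR at 1.55, whereas PEPR1 and PEPR2 were lower in SA.

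**Figure D4:**
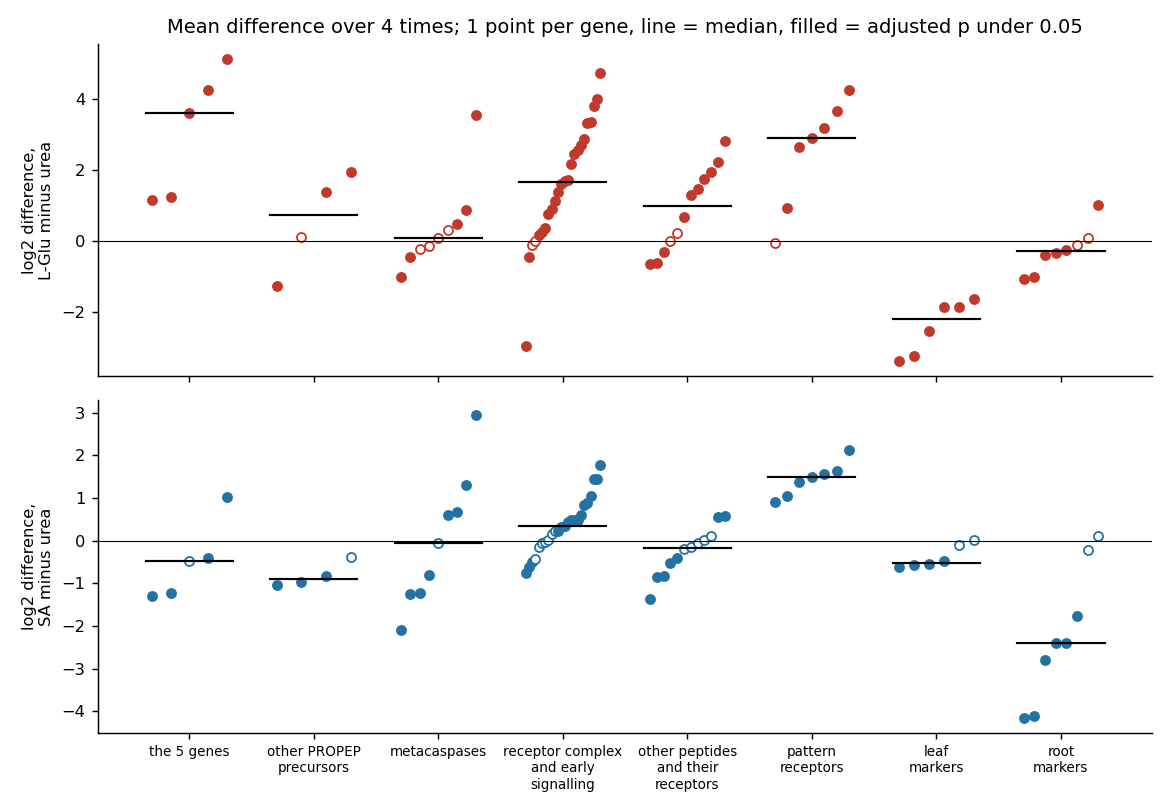
Log2 difference averaged over times for L-Glu minus urea (top) and SA minus urea (bottom), with 1 point per gene and the genes of each list side by side on the horizontal axis. Lines are medians, and filled points have an adjusted p under 0.05. The pattern receptors, listed with their partners, have medians of 2.92 in L-Glu and 1.49 in SA, and the leaf markers have -2.21 and -0.51.

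The PROPEP genes were set against the protein-coding genes around them. Of the 3 on each side, AT5G64870, a SPFH and Band 7 domain membrane protein gene before PROPEP2, exceeded its urea level by 8.87 ± 0.51 on the log2 scale in L-Glu at 24 h (SE, adjusted p = 9.57e-17 by limma). It held 5439, 7010 and 9807 in L-Glu, against 18.2, 15.2 and 10.9 in urea. The next gene, AT5G64880, was at 1.05 ± 0.21 and CPR5, a regulator of defence, at 0.82 ± 0.20. CPR5 was at 0.22 at 12 h and 0.12 at 48 h, neither of which passed. At 24 h CIP8 was lower, at -0.48 ± 0.17 (adjusted p = 0.0129 by limma), while DPE1 was at -0.15 (adjusted p = 0.497) and AT5G64910 at -0.49 (adjusted p = 0.443). The stretch held genes that were higher, 1 that was lower and genes that did not pass the test.

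PEPR1 also had a neighbour with a large difference. AT1G73066, a leucine-rich repeat gene that ends 161 bases before PEPR1 on the same strand, was higher by 7.67 ± 0.60 at 24 h (SE, adjusted p = 3.01e-13 by limma). It held 663, 400 and 493 in L-Glu at 24 h, against 0, 1.82 and 4.59 in urea. On the other side, AT1G73090 starts at base 27488217, just after PEPR1 ends at 27488204. It was at 2.22 ± 0.34 at 24 h, but at 0.51 at 12 h and 0.34 at 48 h, neither of which passed. SUVH3 was at 0.06 at 24 h (adjusted p = 0.809). Next to PEPR2, PGDH was at -0.09 (adjusted p = 0.765) and CSTF77 at 0.37 (adjusted p = 0.0547).

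**Figure D5:**
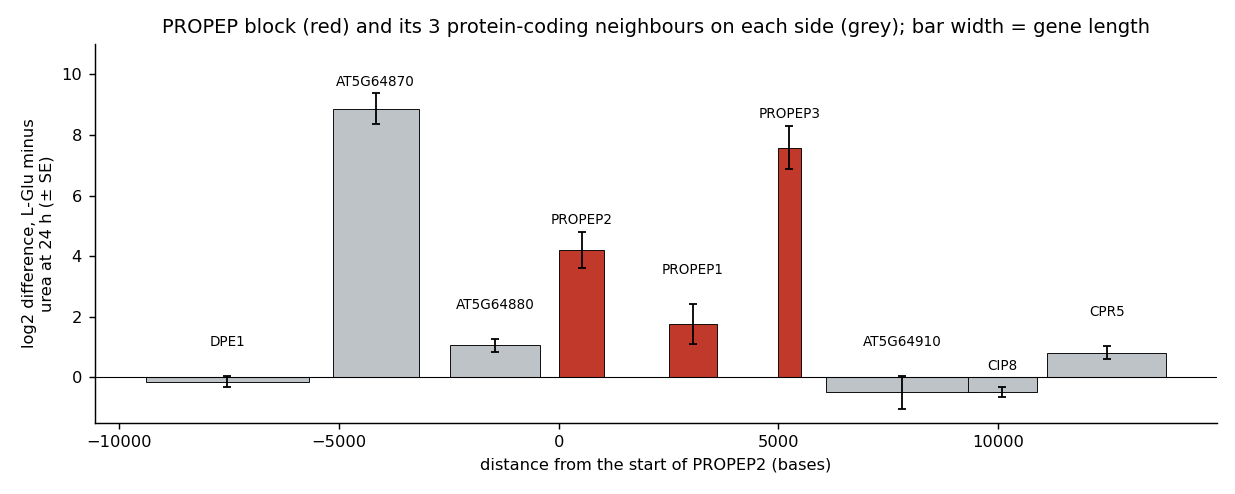
Bars give the log2 difference at 24 h, L-Glu minus urea (± SE), for each gene at its place, with distance from the start of PROPEP2 in bases on the horizontal axis. PROPEP genes are red and neighbours grey. AT5G64870 at 8.87 and PROPEP3 at 7.58 stand highest.

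The pattern over the 13 groups was compared between genes by Pearson's correlation of group means of log2(value + 1), a description over groups that share their treatments. Nearest to PROPEP3 were GCL1 at r = 0.994, AT2G42060 at 0.993 and ECT7 at 0.993. PEPR1 was nearest to AT1G67510, a leucine-rich repeat kinase gene, at 0.994, AT4G38900 at 0.994 and BHLH92 at 0.993. For PROPEP2 the nearest were AT3G25600, an EF-hand calcium-binding protein gene, at 0.974, AT2G46150 at 0.970 and FMO1, needed for systemic acquired resistance, at 0.969. PROPEP1 was nearest to RABC2b at 0.980, AT5G28610 at 0.979 and AT4G22610 at 0.975, all highest in L-Glu at 48 h as PROPEP1 was. PEPR2 was nearest to RLP12 at 0.974, AT5G18150 at 0.965 and PUP7 at 0.965. Among the 5 genes themselves r was highest between PEPR1 and PROPEP3, at 0.973, with 193 genes closer to PEPR1 than PROPEP3 was. It was lowest between PROPEP1 and PROPEP2, at 0.587.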

How the data were processed

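RNA sequencing of 39 libraries in 13 groups was used. The authors deposited 1 table of normalized signal for 20001 genes; its scaling was not stated. Tools listed in the submitters' processing notes, with no role given, were edgeR 3.22.3, HTSeq 0.6.0 and TopHat2 2.1.0, and the build was TAIR10. In 3 libraries at least 90% of low values were whole multiples of 1 step within 0.1 step, but the median over libraries was 29.4%, so whole reads were not recovered for the table and depth is unknown.

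Values were taken as log2(value + 1) and fitted with limma 3.58.1 in R 4.3.3, as 13 group means with an intensity trend and 26 residual degrees of freedom. P-values were Benjamini-Hochberg adjusted over all genes. All 20001 genes passed the filter of 1 in 3 libraries. Pairs of genes were compared in Python 3.11.15 with numpy 2.4.6 and pandas 2.3.3. The steps were tested on simulated data. Sequences and coordinates come from RefSeq TAIR10.1, and 19887 genes matched its names. Its table does not pair some listed symbols with their identifiers, and those genes were not used here.

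The 5 genes and the gene lists were chosen with earlier results of these data known. Named of each list were the 2 highest and the lowest called genes in L-Glu against urea averaged over times, with PROPEP4 to PROPEP7, BAK1, SERK4, BIK1, RBOHD, MC4, FLS2 and EFR in any case. For likeness, the 3 nearest genes with a group mean of at least 10 were named. Alternatives changed the pseudocount, filter, scaling, samples fitted, replicate block and libraries left out.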

Additional observations from a re-analysis of the deposited data

Results flagged for a closer look

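The difference between L-Glu and urea was not the same at 48 h as at 6 h for 3 genes, by a direct test of the change in limma. It grew by 3.85 for PROPEP1 (adjusted p = 0.00115), by 5.44 for PROPEP3 (adjusted p = 5.37e-05) and by 4.50 for PEPR1 (adjusted p = 1.84e-10), on the log2 scale.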

How the results depend on the processing

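Of 3213 recomputed values, 2984 kept their side of the threshold or, for counts of genes, stayed close to the count reported. Of these, 64 uncalled differences changed sign, and 0 called values reversed. The values below are log2 differences, or differences between the responses of a pair where a gene is given less another, and the cause of each change was not tested. The depth behind each value is unknown, and PROPEP1, PROPEP2, PROPEP3 and PEPR2 had low values outside L-Glu, where the pseudocount decides part of the difference. With every library at the same total, the values that crossed the threshold were 0.34 for PEPR2 and 0.80 for PROPEP1 with 3 of the 5 genes called in L-Glu against urea at 24 h and 1.03 for PEPR2 in L-Glu against urea at 48 h. They were also -1.27 for PEPR2 with 2 of the 5 genes called in SA against urea at 48 h and 0.82 for PEPR1 in L-Glu against SA at 6 h. Others were 1.03 for PEPR2 and 1.28 for PROPEP2 with 2 of the 5 genes called in L-Glu 12 h against L-Glu 6 h and 1.04 for PROPEP2 in L-Glu 24 h against L-Glu 12 h. The same setting gave 1.89 for PROPEP1 with 2 of the 5 genes called in L-Glu 48 h against L-Glu 24 h and 0.86 for PROPEP1 in L-Glu averaged against mock 0 h. With a pseudocount of 0.25, values were 1.96 for PROPEP1 in L-Glu against urea at 24 h and 2.47 for PROPEP1 in L-Glu against SA at 12 h. Further values were 1.95 for PROPEP2 in L-Glu against SA at 48 h and 1.79 for PROPEP2 in L-Glu 12 h against L-Glu 6 h. It also gave 2.45 for PROPEP1 and 1.61 for PROPEP2 with 2 of the 5 genes called in L-Glu 24 h against L-Glu 12 h and 1.30 for PROPEP1 in L-Glu averaged against mock 0 h. To these came 1.67 for PROPEP2 in SA averaged against mock 0 h and -1.14 for PROPEP2 less PROPEP3 in L-Glu against urea. In fits of the groups compared alone, values were -1.27 for PEPR2 with 0 of the 5 genes called in SA against urea at 12 h and 1.97 for PROPEP3 with 1 of the 5 genes called in L-Glu against SA at 6 h. They were also -0.53 for PEPR1 with 2 of the 5 genes called in SA 48 h against SA 6 h. With a pseudocount of 4, values were -0.81 for PEPR2 with 0 of the 5 genes called in SA against urea at 12 h and 0.75 for PEPR1 in L-Glu against SA at 6 h. Others were 1.17 for PROPEP1 with 2 of the 5 genes called in L-Glu 48 h against L-Glu 24 h and -0.55 for PROPEP1 and 0.65 for PROPEP2 with 2 of the 5 genes called in SA averaged against mock 0 h. The same setting gave 1.97 for PROPEP2 for the change of L-Glu against urea from 6 to 48 h and -1.66 for PROPEP2 less PEPR1 and 0.094 for PROPEP3 less PEPR1 in L-Glu against urea. Further values were -0.27 for PROPEP1 less PEPR1 and 0.66 for PROPEP3 less PEPR2 in SA against urea. With quantile normalization, values were -1.03 for PEPR2 with 0 of the 5 genes called in SA against urea at 12 h and -1.33 for PROPEP1 in SA against urea at 24 h. It also gave 0.80 for PEPR1 and 1.58 for PROPEP3 in L-Glu against SA at 6 h and -0.60 for PEPR1 with 0 of the 5 genes called in L-Glu 48 h against L-Glu 24 h. To these came 1.08 for PROPEP1 in L-Glu averaged against mock 0 h and -0.85 for PEPR2 and -0.82 for PROPEP1 with 2 of the 5 genes called in SA averaged against mock 0 h. They were also 2.19 for PROPEP2 for the change of L-Glu against urea from 6 to 48 h. With a filter at 5, values were 0.77 for PEPR1 in L-Glu against SA at 6 h. With the replicate number as a block, values were 0.77 for PEPR1 in L-Glu against SA at 6 h and -1.22 for PROPEP1 in SA averaged against mock 0 h. With recomputed trimmed-mean factors, values were -1.20 for PROPEP1 in SA averaged against mock 0 h.

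With libraries left out, singly or by replicate number, the lowest and highest values follow. In L-Glu against urea at 6 h, the ends were 0 and 2 for the number of genes called, 0.33 and 1.35 for PEPR1 and 2.28 and 3.12 for PROPEP2. In L-Glu against urea at 12 h, the ends were 1.22 and 2.23 for PEPR2. In L-Glu against urea at 24 h, the ends were 3 and 5 for the number of genes called, 1.07 and 1.73 for PEPR2 and 0.59 and 2.39 for PROPEP1. In L-Glu against urea at 48 h, the ends were 1.05 and 1.84 for PEPR2. In L-Glu against urea averaged, the ends were 0.41 and 1.56 for PROPEP1. In SA against urea at 12 h, the ends were 0 and 1 for the number of genes called, -1.92 and -0.59 for PEPR2 and -2.81 and -0.62 for PROPEP1. In SA against urea at 24 h, the ends were 0 and 3 for the number of genes called, -1.02 and -0.73 for PEPR1, -2.12 and -1.14 for PEPR2 and -2.53 and -1.39 for PROPEP1. In SA against urea at 48 h, the ends were 0 and 2 for the number of genes called, -1.73 and -0.75 for PROPEP1 and 1.90 and 3.17 for PROPEP2. In SA against urea averaged, the ends were 2 and 4 for the number of genes called, -0.48 and -0.34 for PEPR1, -1.94 and -0.98 for PROPEP1, 0.64 and 1.39 for PROPEP2 and -0.81 and -0.0022 for PROPEP3. In L-Glu against SA at 6 h, the ends were 1 and 4 for the number of genes called, 0.35 and 1.42 for PEPR1, 0.78 and 1.42 for PEPR2 and 1.32 and 2.51 for PROPEP3. In L-Glu against SA at 12 h, the ends were 0.93 and 1.93 for PROPEP1. In L-Glu against SA at 48 h, the ends were 1.39 and 2.41 for PROPEP2. In L-Glu 12 h against L-Glu 6 h, the ends were 2 and 4 for the number of genes called, 1.09 and 1.75 for PEPR2 and 1.51 and 1.96 for PROPEP2. In L-Glu 24 h against L-Glu 12 h, the ends were 2 and 4 for the number of genes called, 1.60 and 2.70 for PROPEP1 and 1.32 and 2.03 for PROPEP2. In L-Glu 48 h against L-Glu 24 h, the ends were 1 and 2 for the number of genes called and 0.84 and 1.90 for PROPEP1. In urea 48 h against urea 6 h, the ends were 0 and 1 for the number of genes called and -0.61 and 0.085 for PEPR1. In L-Glu averaged against mock 0 h, the ends were 3 and 5 for the number of genes called, 1.17 and 1.60 for PEPR2 and 0.81 and 1.67 for PROPEP1. In SA averaged against mock 0 h, the ends were 0 and 3 for the number of genes called, -0.75 and -0.67 for PEPR1, -1.44 and -0.82 for PEPR2, -1.53 and -0.88 for PROPEP1 and 0.58 and 1.74 for PROPEP2. For the change of L-Glu against urea from 6 to 48 h, the ends were 1.06 and 2.89 for PROPEP2. For the response to L-Glu against urea, the ends were -1.70 and -1.19 for PROPEP2 less PROPEP3 and 0.44 and 1.48 for PROPEP3 less PEPR1. For the response to SA against urea, the ends were -1.56 and -0.52 for PROPEP1 less PEPR1, 0.38 and 1.35 for PROPEP3 less PEPR2 and 0.73 and 0.88 for PEPR1 less PEPR2.

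Same-numbered libraries of different groups had correlations of their deviations between -0.123 and 0.203 over 234 pairs, with 36 over 0.1, although 35 of 39 libraries correlated best with their own number. The numbers were not taken as pairs, and in the limma fits the replicate block changed no call other than those above. The permutation tests of pairs were not run with the block.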
